A study of Mus musculus with 8 samples.

Results

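The miRNAs described here are those of the red cell lineage in mouse serum, namely mmu-miR-451a, mmu-miR-144-3p, mmu-miR-144-5p, mmu-miR-486a-5p, mmu-miR-15a-5p, mmu-miR-15b-5p and mmu-miR-16-5p, written below without the species prefix. They were taken by name from a list of 8, of which mmu-miR-486b-5p was not analysed here, so that 7 of the 1881 mouse miRNAs on the array are described. Sera of 4 irradiated mice (7 Gy) and of 4 non-irradiated mice (0 Gy) were each measured on 1 array. All were male C57BL/6NJcl mice, 8 weeks old at exposure, with no altered genes named. The 7 Gy mice received whole-body X-rays at 1.0 Gy per min and their sera were taken 72 h later, whereas the time of the 0 Gy sera on the arrays is not named. Each array was labelled from 30 ng of serum RNA. The comparison of 7 Gy with 0 Gy asked which serum miRNAs change after a high radiation dose, and here it was read for red cell content, array by array.

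Red cells lose their nucleus but keep small RNAs, and miR-451a and miR-144 are made from a common precursor transcript that GATA1 switches on as erythroid cells mature. MiR-451a is unusual in that Ago2, not Dicer, cuts its hairpin. MiR-486 comes from within the Ank1 gene, which encodes a red cell membrane skeleton protein, and is also abundant in muscle. MiR-15a, miR-15b and miR-16 repress cell cycle and survival genes such as Bcl2 in many cell types. Because rupture of red cells releases miR-451a, its ratio to miR-23a-3p, of which red cells hold little, is in common use as a sign of haemolysis in serum. MiR-16-5p, abundant in red cells, is often used as a reference miRNA in serum.

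The mature sequences show which members can act on the same targets, since the seed (bases 2 to 8 from the 5′ end, in capitals) directs target choice. They are those of RefSeq for GRCm38.p6, in which 6 of the members and miR-23a-3p were found.
miR-451a: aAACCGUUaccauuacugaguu
miR-144-3p: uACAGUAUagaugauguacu
miR-144-5p: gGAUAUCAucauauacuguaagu
miR-15a-5p: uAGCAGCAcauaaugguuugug
miR-15b-5p: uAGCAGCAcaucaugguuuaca
miR-16-5p: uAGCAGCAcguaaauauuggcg
miR-23a-3p: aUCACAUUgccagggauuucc

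MiR-15a-5p, miR-15b-5p and miR-16-5p shared 1 seed, and miR-451a and each arm of miR-144 had a seed of their own. MiR-15a-5p and miR-15b-5p had the same base at 18 of 22 positions, miR-15a-5p and miR-16-5p at 16, and miR-15b-5p and miR-16-5p at 14. Counted from the 5′ end, the first difference lay at position 12, 10 and 10 in these pairs. MiR-451a lies on the plus strand at chr11:78073186-78073207, and the hairpin of miR-144 ends 99 bases before that of miR-451a begins. MiR-144-5p lies at chr11:78073010-78073032 and miR-144-3p at chr11:78073047-78073066. MiR-15a-5p lies on the minus strand at chr14:61632075-61632096, inside the gene Dleu2, where the hairpin of a copy of miR-16-5p (chr14:61631936-61631957) lies 54 bases away. MiR-15b-5p lies at chr3:69009775-69009796, inside Smc4, where the hairpin of the other copy of miR-16-5p (chr3:69009918-69009939) follows after 66 bases. The array cannot tell apart the miR-16-5p of its 2 loci.

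The 8 arrays were not of equal quality. The software called 378 to 687 miRNAs detected on the 7 Gy arrays and 531 to 603 on the 0 Gy arrays. The labelling spike-ins, control RNAs added before the dye, had a log10 signal of 2.31, 3.35, 1.95 and 1.97 on 7 Gy replicates 1 to 4, against 3.68, 3.45, 2.73 and 3.37 on 0 Gy replicates 1 to 4. They were out of the accepted range on 7 Gy replicates 1, 3 and 4, and in range on the other 5 arrays. 7 Gy replicate 2 thus stood apart from its group and with the 0 Gy arrays in labelling. The fold change of each member is therefore given with all 8 arrays, without 7 Gy replicate 2, and for the 5 arrays in range. Without 7 Gy replicate 2, every 7 Gy array left was out of range and every 0 Gy array in range. Group and labelling cannot be told apart there.

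MiR-451a was very high in serum of non-irradiated mice and under 20 array units in 3 of the 4 irradiated mice. Its signal before scaling was 19.3, 39270, 7.11 and 14.03 on 7 Gy replicates 1 to 4. On 0 Gy replicates 1 to 4 it was 172768, 86473, 2595 and 5993. The groups overlapped only through 7 Gy replicate 2, which lay above 0 Gy replicates 3 and 4. MiR-451a made up 0.0598%, 16.2%, 0.0191% and 0.00876% of the summed signal of all detected miRNAs on the 7 Gy arrays, against 39.7%, 31.4%, 1.81% and 5.29% on the 0 Gy arrays. These are shares of signal and not of molecules. In serum, fewer contributing cells and less miRNA per cell cannot be told apart. Labelling was also weaker on the 3 arrays with low miR-451a, and the cause of their low signal was not tested.

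For the test, arrays were scaled to a common 90th percentile and values under 100 were set to 100, a floor at which values have no order. Scaled miR-451a was 83.5, 14871, 32.9 and 10.6 at 7 Gy, so that 3 arrays lay under the floor, against 67369, 39046, 2762 and 5570 at 0 Gy. The log2 fold change of 7 Gy over 0 Gy was −5.34 with a standard error of 1.94, the lowest of the 208 miRNAs tested. With limma over all 208 the adjusted p was 0.129 and the unadjusted p 0.0276, so miR-451a did not pass the test with all arrays. Without 7 Gy replicate 2, where group and labelling cannot be told apart, the log2 fold change was −6.95 and the adjusted p 0.00772. With only the 5 arrays in range, which leaves 7 Gy replicate 2 alone against the 4 0 Gy arrays, it was 0.068 and the adjusted p 0.986, on the assumption that a lone 7 Gy array varies like the 0 Gy arrays. A fit that also took in each array's labelling signal gave −0.69 and an adjusted p of 0.915. Scaling all 8 arrays to their labelling spike-ins gave −4.51, with an unadjusted p of 0.0429 and an adjusted p of 0.495. With weights for array quality it was −6.11 with an adjusted p of 0.00772, in a fit that called 6.73% of all tested miRNAs lower. The methods' t-test, at 1.5-fold and before adjustment, called miR-451a as well, and 6.73% of all tested miRNAs lower.

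**Figure D1:**
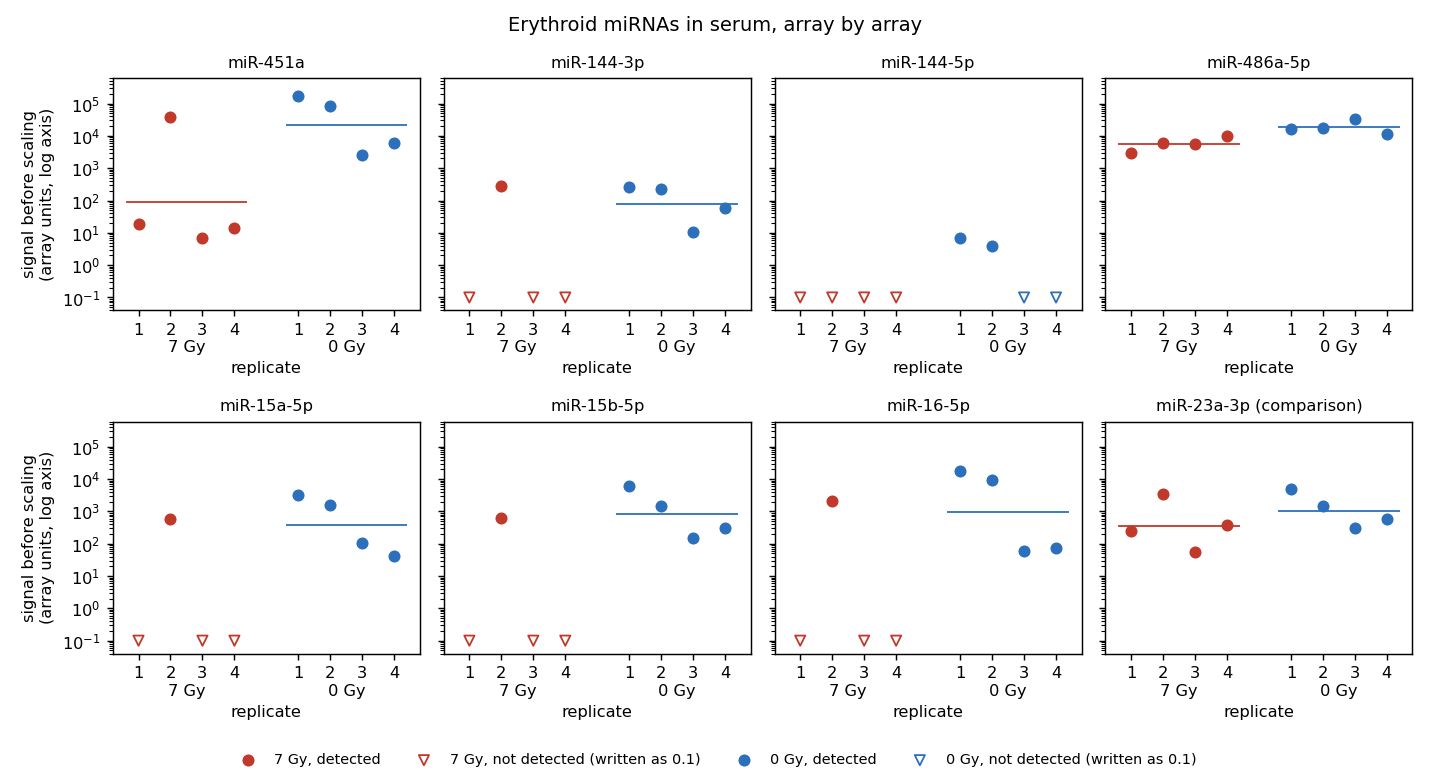
Signal before scaling (array units, log axis) of the 7 members and of miR-23a-3p on each array, with 7 Gy replicates left of 0 Gy replicates. Filled points were called detected, open triangles were not and are written as 0.1 in the files, and lines are geometric means where all 4 arrays detected the miRNA. MiR-451a was at 7.11 to 19.3 on 3 of the 4 7 Gy arrays, whereas miR-486a-5p was at least 2922 on every array.

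The partner of miR-451a, miR-144, gave signals close to or under the floor. MiR-144-3p is known to repress the antioxidant regulator NRF2 in human erythroid cells. Its signal before scaling was 279 on 7 Gy replicate 2 and not detected on 7 Gy replicates 1, 3 and 4, against 268, 227, 10.7 and 59.5 on 0 Gy replicates 1 to 4. After scaling it lay at the floor on 3 of 4 7 Gy arrays and on 2 of 4 0 Gy arrays. Its log2 fold change was −0.0048 (standard error 0.079, limma adjusted p = 0.982), a value that the floor fixes near 0 and that says little about its size. With the 5 arrays in range it was 0.45 (adjusted p = 0.954), and without 7 Gy replicate 2 the miRNA was not tested. MiR-144-5p, the other arm of the hairpin, was not detected on any 7 Gy array, against 7.16 and 3.87 on 0 Gy replicates 1 and 2 and no detection on 0 Gy replicates 3 and 4. Of its 2 probes, 1 had no spot well above background on any array, and the other had 15 and 8 of its 15 spots above it on those 0 Gy arrays. It lay under the floor on all 8 arrays and was not tested.

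The 2 partners were both detected on 5 arrays. The log2 of miR-144-3p minus that of miR-451a was −7.14 on 7 Gy replicate 2, against −9.33, −8.57, −7.93 and −6.65 on the 0 Gy arrays. The 7 Gy value lay inside the 0 Gy range. The difference is set by the probes too and is not a ratio of molecules.

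MiR-486a-5p did not follow miR-451a. Its signal before scaling was 2922, 6026, 5569 and 9676 on 7 Gy replicates 1 to 4, against 16671, 17736, 32467 and 11568 on 0 Gy replicates 1 to 4. Every 7 Gy array lay below every 0 Gy array on this unscaled measure, in which no difference in labelling between arrays is removed. After scaling the values were 12661, 2282, 25788 and 7312 at 7 Gy, against 6501, 8009, 34551 and 10752 at 0 Gy, and the groups overlapped widely. The log2 fold change was −0.46 with a standard error of 0.84, and the limma adjusted p was 0.705. It was 0.18 without 7 Gy replicate 2, −2.37 with the 5 arrays in range and 1.30 when arrays were scaled to the labelling spike-ins. The limma fit that took in each array's labelling signal gave −2.37, with an unadjusted p of 0.00469 and an adjusted p of 0.163. In that fit miR-451a had −0.69. The sign of the miR-486a-5p change is thus not settled. The 7 Gy arrays spanned 3.31-fold and the 0 Gy arrays 2.81-fold before scaling, against 5521-fold and 66.6-fold for miR-451a. After scaling they spanned 11.3-fold and 5.31-fold, against 1402-fold and 24.4-fold for miR-451a.

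The members with the common seed were detected in all 4 non-irradiated mice and in 7 Gy replicate 2 alone among the irradiated mice. MiR-16-5p had a signal of 2140 on 7 Gy replicate 2, against 17678, 9647, 59.4 and 73.5 on 0 Gy replicates 1 to 4. MiR-15b-5p had 609 on 7 Gy replicate 2, against 6311, 1522, 152 and 310 on the 0 Gy arrays. MiR-15a-5p had 603 on 7 Gy replicate 2, against 3194, 1530, 103 and 42.3 on the 0 Gy arrays. In all 3, the 7 Gy array that detected them lay between 0 Gy replicates 1 and 2 on one side and 0 Gy replicates 3 and 4 on the other. The 0 Gy arrays spread over 297-fold in miR-16-5p, 75.5-fold in miR-15a-5p and 41.5-fold in miR-15b-5p before scaling, and over 109-fold, 31.7-fold and 15.2-fold after it.

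MiR-16-5p had a log2 fold change of −2.13 with a standard error of 1.68 and a limma adjusted p of 0.434. For miR-15b-5p it was −2.10 with a standard error of 0.83, with an unadjusted p of 0.0387 and an adjusted p of 0.150. MiR-15a-5p had −1.34, a standard error of 0.89 and an adjusted p of 0.338. None of the 3 passed the test. Without 7 Gy replicate 2 the log2 fold changes were −2.79, −2.21 and −1.51 for miR-16-5p, miR-15b-5p and miR-15a-5p, with adjusted p of 0.271, 0.120 and 0.271. With the 5 arrays in range they were 0.43, −1.20 and −0.25, with adjusted p of 0.975, 0.954 and 0.975. On the array, 7 further mouse miRNAs carried the same seed, of which 4 were detected on no array. MiR-497a-5p, detected on 5 arrays, had 302 on 7 Gy replicate 2 and no detection on the other 7 Gy arrays, against 354, 116, 15.8 and 43.7 on the 0 Gy arrays. MiR-195a-5p and miR-322-5p were each detected on 7 Gy replicate 2 and on 3 of the 0 Gy arrays and were not tested. No other array miRNA carried the seed of miR-451a, miR-144-3p or miR-144-5p.

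Across the members, 6 of 7 passed the filter on low values, and 0 of these 6 were called at an adjusted p under 0.05, against 3.85% of all 208 tested miRNAs (8, of which 4 were lower and 4 higher at 7 Gy). At an unadjusted p under 0.05, 2 of the 6 were lower, miR-451a and miR-15b-5p, and 7.69% of all tested miRNAs were. The fitted log2 fold change was below 0 in 6 of 6, against 40.4% of all tested, and the median was −1.72, against 0.17 over all tested. Of the 6, 4 are miRNAs that passed the filter through the 0 Gy arrays and 7 Gy replicate 2, so that these counts are not support for a fall of the members. No member had groups that did not overlap after scaling, against 5.29% of all tested that lay lower at 7 Gy with no overlap. Without 7 Gy replicate 2, where group and labelling cannot be told apart, 1 member was called lower, miR-451a, against 5.73% of 192 tested miRNAs.

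**Figure D2:**
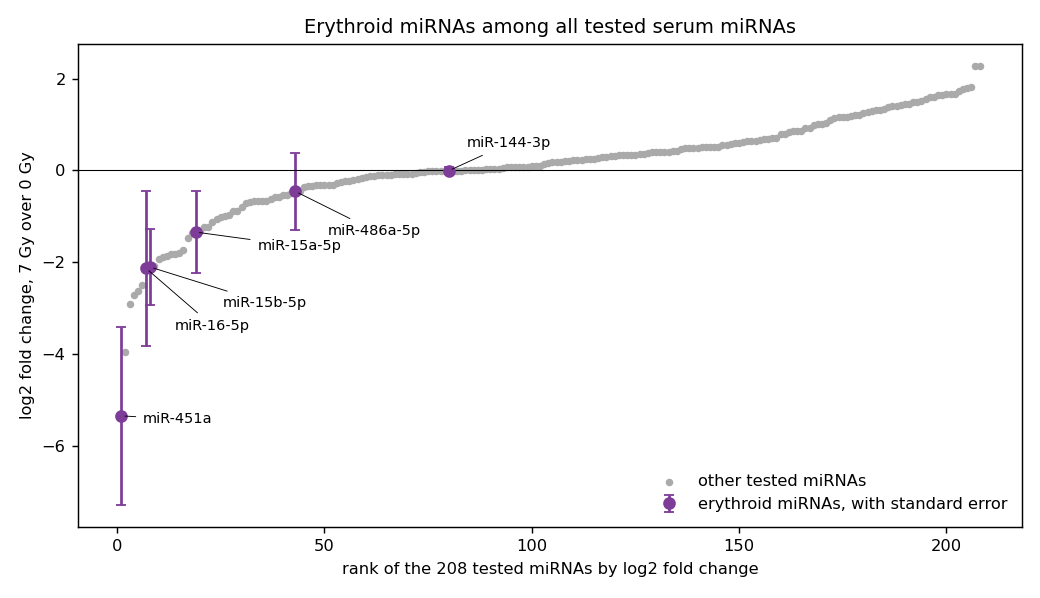
Fitted log2 fold change of 7 Gy over 0 Gy (vertical axis) of the 208 tested miRNAs in order of rank (horizontal axis), with the 6 tested members in purple and their standard errors as bars. MiR-451a had rank 1 from the lowest, miR-16-5p 7, miR-15b-5p 8, miR-15a-5p 19, miR-486a-5p 43 and miR-144-3p 80.

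Detection divided the members as well. Of the 445 miRNAs detected on all 4 0 Gy arrays, 69.9% were detected on all 7 Gy arrays too, among them miR-451a and miR-486a-5p. Those detected on 7 Gy replicate 2 alone among the 7 Gy arrays were 12.6%, and miR-144-3p, miR-15a-5p, miR-15b-5p and miR-16-5p were of these. To set this beside signal level, other miRNAs were counted whose lowest 0 Gy signal was at least that of the member. For miR-15b-5p there were 65, of which 61 were detected on all 7 Gy arrays and 2 were, like it, missing on 7 Gy replicates 1, 3 and 4. For miR-16-5p the counts were 122, 110 and 6, and for miR-15a-5p they were 145, 127 and 8. For miR-144-3p they were 262, 217 and 25. Most miRNAs at least as bright as the member at 0 Gy were detected on all 7 Gy arrays. They were matched on 0 Gy signal alone and not on base composition. Why the members were missing on 7 Gy replicates 1, 3 and 4 was not tested.

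Before the floor is applied, a difference taken within an array does not depend on scaling between arrays, but it is not corrected for labelling. The log2 of miR-451a minus that of miR-23a-3p was −3.68, 3.54, −2.92 and −4.72 on 7 Gy replicates 1 to 4, against 5.08, 5.93, 3.13 and 3.32 on 0 Gy replicates 1 to 4. It averaged −1.94 ± 3.73 at 7 Gy and 4.37 ± 1.36 at 0 Gy (SD, n = 4 each). 7 Gy replicates 1, 3 and 4 lay far below every 0 Gy array, and 7 Gy replicate 2 lay within the 0 Gy range. With the floor, which follows scaling, the means differed by −5.03, with −5.96 to −4.28 under the other scalings. The value of −5.03 did not pass the two-sided exact permutation test (p = 0.0857, where the 70 arrangements allow 0.0286 at the smallest). Without 7 Gy replicate 2, where group and labelling cannot be told apart, the difference was −6.24. The exact p was 0.0286, the smallest that its 35 arrangements allow. Over the 5 arrays in range the difference was −0.825, where 5 arrangements allow no p under 0.2 and the test cannot pass. Both slide rows hold both groups, with 2 arrays of each, and the difference was −5.45 within row 1 and −4.62 within row 2. In row 1 the 7 Gy arrays lay apart, at −3.42 and 3.54 with the floor, the latter within the 0 Gy range. In row 2 both 7 Gy arrays had miR-451a at the floor and labelling out of range.

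MiR-23a-3p itself was detected on every array, with 247, 3376, 53.7 and 371 at 7 Gy, against 5095, 1419, 297 and 601 at 0 Gy before scaling. Its groups overlapped, and its scaled log2 fold change was −0.31 (limma adjusted p = 0.764). The log2 of miR-486a-5p minus that of miR-23a-3p was 3.56, 0.84, 6.70 and 4.71 at 7 Gy, against 1.71, 3.64, 6.77 and 4.27 at 0 Gy. It averaged 3.95 ± 2.45 at 7 Gy and 4.10 ± 2.09 at 0 Gy (SD, n = 4 each), a difference of −0.15 that is small beside either spread. Within the arrays, then, miR-451a and miR-486a-5p parted. MiR-486a-5p minus miR-451a was 7.24, −2.70, 9.61 and 9.43 on the 7 Gy arrays, against −3.37, −2.29, 3.65 and 0.95 on the 0 Gy arrays.

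The arrays with the lowest miR-451a were those with the weakest labelling. From high to low, the order of the 8 arrays by unscaled miR-451a was that by the labelling spike-ins, except that 7 Gy replicate 2 and 0 Gy replicate 4 changed places. MiR-15b-5p and miR-16-5p had the order of miR-451a on the arrays that detected them, and miR-15a-5p differed only in 0 Gy replicates 3 and 4. The order by miR-486a-5p was another, with 0 Gy replicate 3 highest and 7 Gy replicate 1 lowest. Of the settings that use labelling, scaling to the spike-ins left the log2 fold change of miR-451a at −4.51, whereas the covariate gave −0.69 and the arrays in range 0.068. None of the 3 passed the test. Slide columns 3 and 4 held 7 Gy sera alone and columns 1 and 2 held 0 Gy sera alone, and column and group cannot be told apart. No haemoglobin reading was used here, and haemolysis was not tested.

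**Figure D3:**
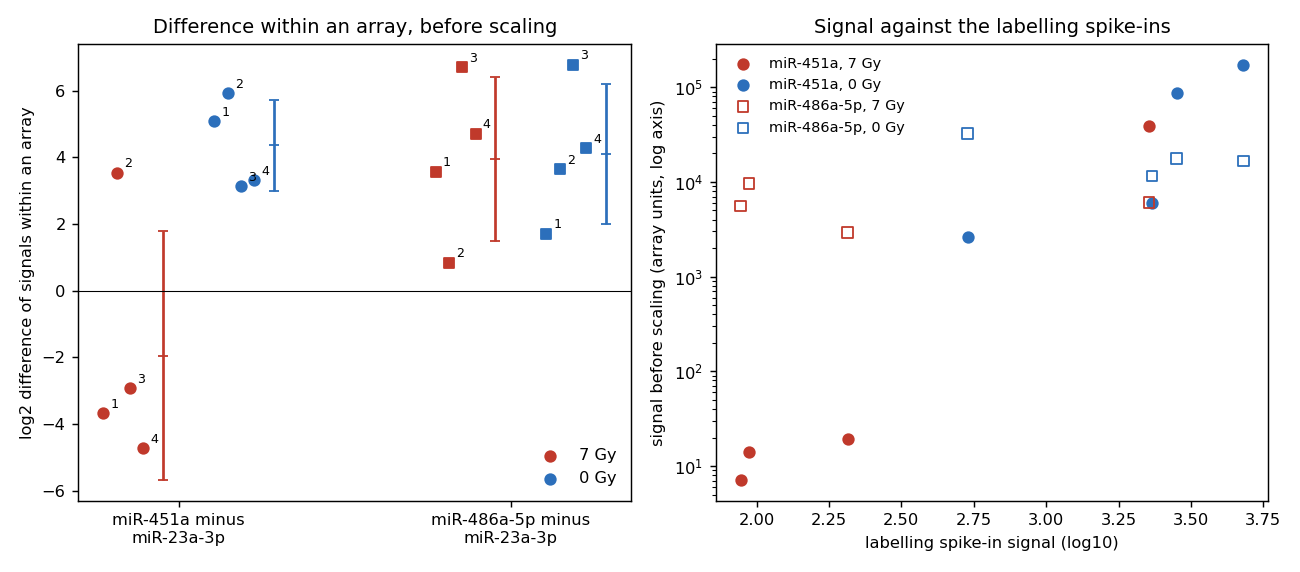
Left, log2 difference of signals within an array (vertical axis) for miR-451a minus miR-23a-3p and miR-486a-5p minus miR-23a-3p, 7 Gy left of 0 Gy, with the replicate number at each point and mean ± SD as bars. Right, signal before scaling (array units, log axis) against the log10 signal of the labelling spike-ins. The miR-451a difference was −2.92 or less on 7 Gy replicates 1, 3 and 4 and at least 3.13 on the other 5 arrays. Unscaled miR-486a-5p was 2922 to 9676 on the 3 weakly labelled arrays and 6026 to 32467 on the other 5, against 7.11 to 19.3 and 2595 to 172768 for miR-451a.

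Both probes of miR-451a gave nearly the same difference, which a floor on their signals in part fixes. Each member was read by 2 probes of 15 spots each, none of them saturated. For miR-451a, the log2 difference of 7 Gy minus 0 Gy was −5.16 with 1 probe and −5.46 with the other, with scaled probe signals under 50 set to 50. The coefficient of variation over the spots of a miR-451a probe was 2.07% to 11.2% on the 0 Gy arrays, which covers variation within an array only. On 7 Gy replicates 1, 3 and 4, where the signal was low, 1 probe had all 15 spots well above background and the other had 15, 7 and 13. The probe differences were −1.34 and −1.35 for miR-15a-5p, −1.89 and −2.29 for miR-16-5p, −0.50 and −0.41 for miR-486a-5p, and −0.999 and −2.68 for miR-15b-5p. For miR-23a-3p they were −0.016 and −0.51. Its brighter probe was 1.06 to 1.23 times the dimmer on 7 Gy replicates 1, 3 and 4, against 1.42 to 2.66 on the other arrays.

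Within slide row 1, which holds replicates 1 and 2 of both groups, the log2 difference of 7 Gy minus 0 Gy was −5.39 for miR-451a and −4.27 for miR-16-5p. Within row 2, which holds replicates 3 and 4, it was −5.29 for miR-451a and 0.00 for miR-16-5p. The latter lay at the floor on all 4 arrays of that row. MiR-451a lay at the floor on both 7 Gy arrays of that row and on 7 Gy replicate 1. MiR-15b-5p had −3.10 in row 1 and −1.11 in row 2. MiR-15a-5p had −2.62 in row 1 and −0.068 in row 2, whereas miR-486a-5p differed little between the rows, with −0.42 and −0.49.

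The miRNAs outside the members whose scaled log2 values were most like those of miR-451a over the 8 arrays were miR-21a-5p (Pearson r = 0.98), miR-25-3p (r = 0.95) and miR-29c-3p (r = 0.94). Their Spearman rho was 1.00, 0.90 and 0.79. Among the members r with miR-451a was 0.87 for miR-15b-5p, 0.82 for miR-16-5p, 0.80 for miR-15a-5p, 0.74 for miR-144-3p and −0.45 for miR-486a-5p. These are descriptions over arrays that share their group, labelling and floor, and were not tested. MiR-21a-5p was not detected on 7 Gy replicates 1, 3 and 4 and had a scaled signal of 1567 on 7 Gy replicate 2, against 4167, 1713, 328 and 942 on the 0 Gy arrays. Its log2 fold change was −2.62 (limma adjusted p = 0.185), with −3.41 (adjusted p = 0.0246) without 7 Gy replicate 2 and 0.36 (adjusted p = 0.970) with the 5 arrays in range. MiR-21a-5p is made by many cell types and is not a red cell marker.

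Of 8 other miRNAs abundant in red cells, 7 were tested and 1 was called lower, miR-25-3p, with 6 below 0 and a median log2 fold change of −0.48. Of all tested miRNAs 1.92% were called lower and 40.4% lay below 0. MiR-92a-3p was at 87.2 to 820 at 7 Gy and 1243 to 2918 at 0 Gy after scaling, and miR-93-5p was detected on 7 Gy replicate 2 alone at 7 Gy, with 377, against 79.7 to 1563 at 0 Gy. MiR-25-3p, from the Mcm7 cluster, had scaled signals of 43.4, 969, 49.6 and 24.2 at 7 Gy, against 4499, 3400, 2456 and 1515 at 0 Gy, with no overlap between groups. Its log2 fold change was −3.96 with a standard error of 0.81 (limma adjusted p = 0.0474). It kept its direction in 29 of 29 alternatives, but the call was lost in 20 of them. Without any 1 array other than 7 Gy replicate 2 the log2 fold change was −4.24 to −3.58 and the adjusted p 0.0927 to 0.134. Without 7 Gy replicate 2, where group and labelling cannot be told apart, it was −4.58 (limma adjusted p = 8.6e-04). With labelling spike-in scaling, the labelling covariate and the 5 arrays in range it was −2.83, −2.20 and −1.50, with adjusted p of 0.495, 0.188 and 0.804. The summed scaled signal of the 8 was 180 to 2357 at 7 Gy and 2988 to 9861 at 0 Gy. Of the 7 opposite arms and paralogues of the members, among them miR-451b, none was tested. MiR-451b and miR-15a-3p were detected on no array, and the summed scaled signal of the 7 was at most 17.8 at 7 Gy and 32.9 at 0 Gy, under the floor.

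Markers of other cells were read on the same arrays. Of 7 white cell markers, 6 were tested, 0 were called and 6 lay below 0, with a median of −0.47. Of all tested miRNAs, 40.4% lay below 0. The summed scaled signal of the white cell markers was 122 to 492 at 7 Gy and 545 to 2077 at 0 Gy, with no overlap. In this sum, values not detected count as 0. Taken singly, only miR-142a-3p of the tested markers lay lower at 7 Gy with no overlap, and 5.29% of all tested miRNAs did. MiR-142a-3p, found across blood cell lineages, was not detected on 7 Gy replicates 1, 3 and 4, had 91.5 on 7 Gy replicate 2, and had 168 to 887 on the 0 Gy arrays (limma adjusted p = 0.0601). It did not pass there, but did in 6 of 28 alternatives. Among them were the slide row as a block (limma adjusted p = 0.0376), where 8 of all 208 tested miRNAs were called lower. Array weights (limma adjusted p = 0.0198) and the methods' t-test before adjustment were others, and each called 14 of the 208 lower. MiR-342-3p was at 106 to 469 at 7 Gy and 161 to 385 at 0 Gy, and miR-223-3p at 6.87 to 215 at 7 Gy and 19.1 to 1102 at 0 Gy. Of 3 platelet and endothelial markers 2 were tested and 0 called, and the sum was 437 to 1421 at 7 Gy and 149 to 1801 at 0 Gy. Of these 2, miR-126a-3p lay below 0 (log2 fold change −0.32) and miR-24-3p above it (1.44), with a median of 0.56. MiR-24-3p was detected on all 7 Gy arrays, with scaled signals of 1232, 1006, 439 and 437, against 1413, 120, 261 and 80.4 at 0 Gy. MiR-126a-3p, found mainly in endothelium and platelets, was detected on 7 Gy replicate 2 alone at 7 Gy, with 398, against 14.1 to 378 at 0 Gy.

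Of 3 muscle markers, a tissue that also holds miR-486, 2 were tested and 0 called, and their sum was 81.3 to 809 at 7 Gy and 276 to 1188 at 0 Gy. Of 2 liver markers 2 were tested and 0 called, with a sum of 0 to 1036 at 7 Gy and 7.87 to 609 at 0 Gy. MiR-133a-3p of muscle was detected on all 7 Gy arrays, at 81.3 to 738, against 161 to 1114 at 0 Gy. MiR-1a-3p of muscle was detected on 7 Gy replicate 2 alone at 7 Gy, with 65.0, against 38.2 to 228 on the 3 of 4 0 Gy arrays that detected it. The liver miRNAs miR-122-5p and miR-192-5p were likewise detected on 7 Gy replicate 2 alone, with 806 and 230, against 5.26 to 442 and 2.61 to 324 at 0 Gy. The part of these cell types in the result for the erythroid miRNAs was not tested.

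The members with a RefSeq sequence were poor in G and C, a feature not used to choose them. No RefSeq sequence was found for miR-486a-5p, so its base composition was not read and it is left out here. G and C made up 36.4% of miR-451a, 30.0% of miR-144-3p, 40.9% of miR-15a-5p and miR-15b-5p, and 45.5% of miR-16-5p. Across the 177 of 208 tested miRNAs with a RefSeq sequence, the log2 fold change went with G and C content (Pearson r = 0.57, Spearman rho = 0.67), which describes miRNAs measured on the same arrays. Of 38 other tested miRNAs with 30.0% to 45.5% G and C, 35 had a log2 fold change below 0 (92.1%), with a median of −0.51 and a lowest value of −2.62. Of 134 with more, 34 lay below 0 (25.4%), and their median was 0.34. MiR-451a lay below every one of the 38 at −5.34. The part of base composition in the fold changes was not tested.

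**Figure D4:**
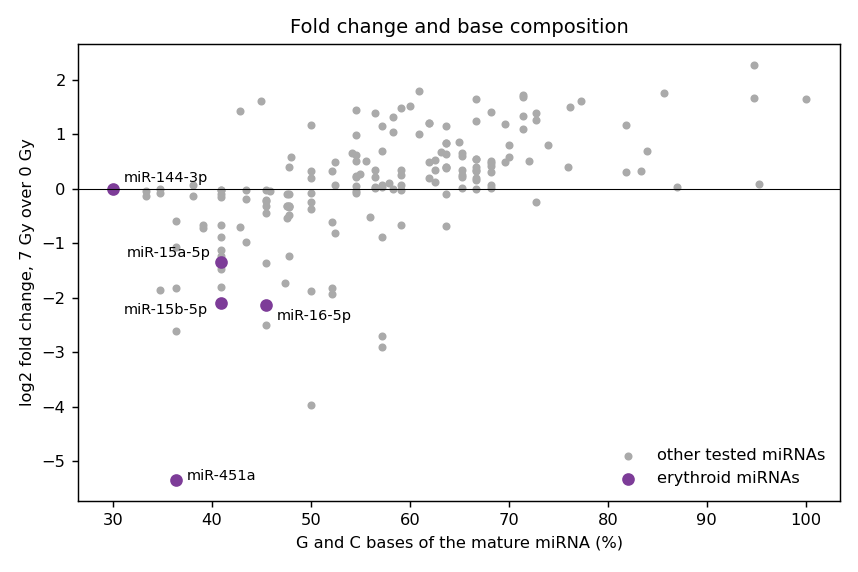
Log2 fold change of 7 Gy over 0 Gy (vertical axis) against the percentage of G and C bases in the mature miRNA (horizontal axis) for 177 tested miRNAs, with the 5 members that have a sequence in purple. MiR-486a-5p, for which no sequence was found, is not shown. Of the 38 others in the range of the members shown, 30.0% to 45.5%, 35 lay below 0, and miR-451a lay lowest of all.

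How far the fold changes held under other processing differed by member. MiR-15b-5p kept its direction in 28 of 28 alternatives, between −8.60 and −0.61, and passed the test in none of them. MiR-451a had a value below 0 in 28 of 29, between −6.95 and 0.068, and passed in 3. MiR-486a-5p was above 0 in 4 of 29. MiR-16-5p was above 0 in 2 of 28, both of them settings that take account of the labelling spike-ins.

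**Figure D5:**
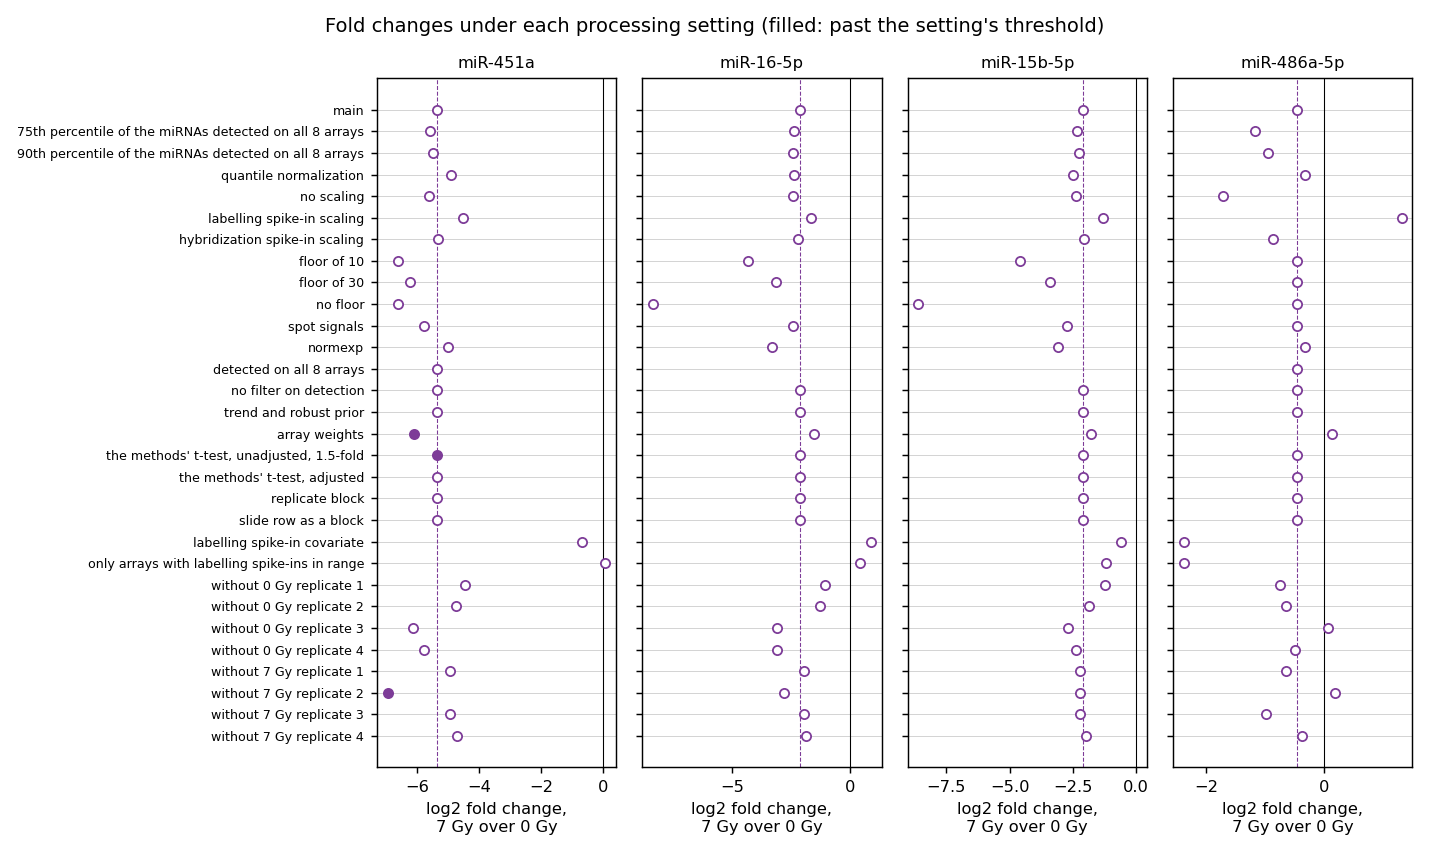
Log2 fold change of 7 Gy over 0 Gy (horizontal axes) of 4 members under each processing setting (rows), with the dashed line at the value of the main setting, filled points past the setting's threshold and no point where the miRNA was not tested. MiR-451a moved to −0.69 with the labelling covariate and to 0.068 with only the arrays in range, and passed with array weights, with the methods' t-test before adjustment, and without 7 Gy replicate 2.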

How the data were processed

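The deposited intensity values are Agilent Feature Extraction output (version 11.5 in the submitters' processing notes), in which the authors' software subtracted background, summed the probes of each miRNA and wrote 0.1 where it was not detected, with no normalization between arrays. The 90th percentile over 1881 mouse miRNAs was made equal on the 8 arrays, values were floored at 100, and log2 was taken. The study's methods name a lower cut-off of that size without saying how it was applied. MiRNAs detected on at least 3 arrays and not at the floor on all 8 (208) were compared with limma 3.58.1 in R 4.3.3. No covariate was used, and adjustment was by Benjamini-Hochberg. A check on simulated data drew independent values with no floor and no labelling difference between groups, and so does not cover these. The miR-451a to miR-23a-3p difference had a two-sided exact permutation test over 70 arrangements. Alternatives covered scaling, floor, background, blocks, the filter on detection, array weights, the prior of the variance, the labelling spike-ins and leaving out each array. The methods' t-test was also run, on the values processed here and not on the study's own.

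Members and lists were chosen with earlier results of these data known. Named were all members, miR-23a-3p, up to 3 tested miRNAs per other list by mean signal, the 3 most correlated with miR-451a, and same-seed miRNAs detected on at least 3 arrays. One array per mouse was taken as a replicate from the labels, and precision is limited by how few there are. Plots used Python 3.11.15 and matplotlib 3.10.9.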

Additional observations from a re-analysis of the deposited data

Results flagged for a closer look

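In 5 of the 16 groups of 4 arrays that were examined, 1 array lay far from the other 3, and in all 5 it was 7 Gy replicate 2. On the log2 scale after scaling, it was at 13.86 for miR-451a, 9.66 for miR-16-5p, 7.85 for miR-15b-5p, 7.83 for miR-15a-5p and 6.72 for miR-144-3p, while the other 7 Gy arrays all lay at the floor of 6.64. Chance marks about 1 in 20 such groups, and values that are tied at a floor are marked whatever the gap above it, as in miR-144-3p. No array stood apart in miR-486a-5p or miR-23a-3p. 7 Gy replicate 2 was the 7 Gy array whose labelling spike-ins were in range. With all arrays scaled to the labelling spike-ins the log2 fold change was −4.51 for miR-451a, −1.64 for miR-16-5p, −1.31 for miR-15b-5p and −0.93 for miR-15a-5p, none past the test.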

How the results depend on the processing

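The limits are 4 arrays a group, a floor that hides dim values, and labelling that was out of range on 3 of the 7 Gy arrays. In all, 8 miRNAs were called (4 higher and 4 lower at 7 Gy). The count was 18 (7 higher, 11 lower) with the 75th percentile of miRNAs detected on all arrays, 28 with a floor of 10, 5 with a floor of 30, 2 with no floor, 4 with a trended robust prior, 75 with array weights, 26 with the slide row as a block, 48 by the methods' t-test at 1.5-fold before adjustment and 2 after it. With limma it was 0 without scaling (18 at an unadjusted p under 0.05), with labelling spike-in scaling (29), hybridization spike-in scaling (21), normexp (151), the labelling covariate (33) and the arrays in range alone (15). Counts of 7 (6 higher, 1 lower) with the 90th percentile of miRNAs detected on all arrays and 6 (2 higher, 4 lower) with quantile normalization moved the split. The median log2 fold change of all tested miRNAs, 0.17, was −0.12, −0.062 and 0.061 under these 3 scalings, −0.091 without scaling and 0.50 with labelling spike-in scaling. Leaving out each array gave 0 to 59 calls. There were 4, 59, 2 and 3 without 7 Gy replicates 1 to 4, and 1, 0, 4 and 5 without 0 Gy replicates 1 to 4. Of the members 0 were called, with 0 to 1 when each array was left out, and 1 (miR-451a) with array weights (log2 fold change −6.11, adjusted p = 0.00772, where 6.73% of all tested were lower), by the methods' t-test before adjustment and without 7 Gy replicate 2. The members' median of −1.72 was −3.91 with a floor of 10, −2.72 with a floor of 30, −7.06 with no floor, −2.74 with normexp, −2.90 for the 2 members detected on all arrays, −0.28 with the labelling covariate, −0.093 with the arrays in range, and −2.27 to −1.04 when each array was left out. The miR-451a minus miR-23a-3p difference of −5.03 was −6.24 to −4.32 when each array was left out, and past the exact test at −6.24 alone (p = 0.0286, without 7 Gy replicate 2). Signs turned as follows, with none of these values past the test. With labelling spike-in scaling, miR-486a-5p had 1.30 and miR-23a-3p 1.45. Array weights gave 0.12 for miR-486a-5p and 0.13 for miR-23a-3p. With the labelling covariate miR-144-3p had 0.046, miR-15a-5p had 0.081, miR-16-5p had 0.87, miR-21a-5p had 0.21 and miR-23a-3p had 1.31. The arrays in range gave 0.068 for miR-451a, 0.43 for miR-16-5p, 0.45 for miR-144-3p, 0.36 for miR-21a-5p and 0.89 for miR-23a-3p. When each array was left out, miR-486a-5p ran over −0.99 to 0.18, miR-144-3p over −0.051 to 0.0055 and miR-23a-3p over −0.71 to 0.20. The cause of these changes was not tested.

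Replicate numbers were not taken as pairs in the main fit. Deviations from the group means correlated at −0.34 for replicate 1 and at 0.43, 0.55 and 0.42 for replicates 2 to 4. These values were not set beside those of differently numbered arrays, so whether the numbers pair the samples is not settled. With a replicate block limma called 0 miRNAs (65 at an unadjusted p under 0.05), 0 members were called, and the exact p of the miR-451a minus miR-23a-3p difference was 0.125.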
